A study of Canis lupus familiaris with 32 samples.

Results

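The tumors compared here are the primary osteosarcomas of the 21 dogs, of 32 in the series, that received postoperative chemotherapy. They were chosen from the clinical table of the study by the entry for postoperative chemotherapy, and the survival groups came from the sample labels. There were 9 short survivors (SS), which lived less than 6 months from diagnosis, and 12 long survivors (LS), which lived longer. SS dogs lived 1.54 to 5.55 months (median 2.53) and LS dogs 7.85 to 57.6 months (median 10.8). Their ages ran from 4.67 to 11.5 years (median 7) in SS and from 3.67 to 10.3 years (median 8.29) in LS. SS held 5 males and 4 females, LS 7 males and 5 females. Tumors of high grade numbered 7 of 9 in SS and 9 of 12 in LS, and a fibroblastic component was recorded in 4 of 9 and in 7 of 12. All 9 SS tumors lay in long bones of the limbs, whereas 4 of the 12 LS tumors lay elsewhere. SS included 4 Great Danes and LS 1. All tumors were removed before any treatment, so the arrays show the untreated tumor and chemotherapy came afterwards. The agents were lobaplatin, doxorubicin, carboplatin or carboplatin with doxorubicin, and which dog received which is not given in the sources used here. The other 11 dogs, 7 SS and 4 LS, received no chemotherapy and serve as a comparison.

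Osteosarcoma is a malignant bone tumor in which the tumor cells lay down osteoid, and it spreads early to the lungs in dogs as in people. After removal of the primary tumor, survival depends largely on metastases that are already present but too small to see, and these are the target of adjuvant chemotherapy. Platinum drugs crosslink DNA, and cells remove the adducts by nucleotide excision repair and by homologous recombination. Doxorubicin traps topoisomerase II on DNA and generates reactive oxygen, and cells export it through efflux pumps or blunt it with glutathione and related systems.

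Each tumor was hybridized on 1 two-color cDNA array against a pool of RNA from all 32 tumors, so a log2 ratio above 0 means more signal than in the pool. The tumor carried Cy5 on 5 SS and 6 LS arrays and Cy3 on 4 SS and 6 LS arrays. The median ratio of an array lay between -0.02 and 0.02. Were the Cy3 arrays of opposite sign, 81 probes would pass in place of the 12 described below, with none in common, so all signed values rest on the switching stated in the methods. The dye orientation left a large mark on the values: over these 21 arrays 13080 of 22176 probes differed by orientation (limma, adjusted p under 0.10), and the mean ratio of a probe in Cy5 and in Cy3 correlated at -0.66. That correlation is taken over probes, which share arrays and are no replicates. Arrays of 1 orientation correlated at 0.148 to 0.61, arrays across orientations at a median of -0.30. Orientation was therefore a covariate, and the differences are also given within each orientation. Bulk tissue was measured, in which fewer cells of a type and less RNA per cell cannot be told apart. Markers of the osteoblast lineage, among them COL1A2, SPARC, SPP1, ALPL and PHEX, were on the array, but the ratio to a tumor pool cannot show whether they are abundant. The labelled tissue could thus not be checked against an absolute level.

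Between SS and LS dogs given chemotherapy, 12 probes differed, 9 higher and 3 lower in SS. These are 0.0541% of the 22176 probes tested, 0.0406% in the higher and 0.0135% in the lower direction. Their smallest adjusted p was 0.075. Higher in SS were ANKRD17 and CCAR1, both linked to cell cycle and transcription control, CHML, an escort protein for the lipid modification of Rab GTPases, FRA10AC1, a nuclear protein named for a fragile site, CCDC25, a coiled-coil membrane protein, and PARP4, the PARP family enzyme of vault particles. Lower in SS was AFG3L2, a catalytic subunit of the mitochondrial m-AAA protease. CCAR1 had 2 probes among the 12, and 4 of the 12 carry no gene symbol. At an unadjusted p under 0.05 there were 2502 probes (11.3%), 1517 higher (6.84%) and 985 lower (4.44%) in SS. The count of 12 was fragile: it became 0 when SS tumor 8, 9 or 12 or LS tumor 17, 19, 20, 25 or 32 was left out, 1 without SS 4 or LS 24, 2 without SS 5, 3 without LS 30, 4 without LS 23, 5 without LS 27 or LS 29, 20 without SS 15, 23 without SS 2, 24 without LS 28, 34 without SS 7 and 53 without SS 14. Without the orientation covariate limma called 0 probes (1058 at an unadjusted p under 0.05, 4.77%, smallest adjusted p 0.164), and SAM without a covariate called 44, 39 higher and 5 lower. With the covariate, 0 probes passed in long bone tumors alone, where all SS but not all LS tumors lay, 0 in the 4-group fit on all arrays and 0 with log10 survival time, and 2 passed with sex or a fibroblastic component added.

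**Figure D1:**
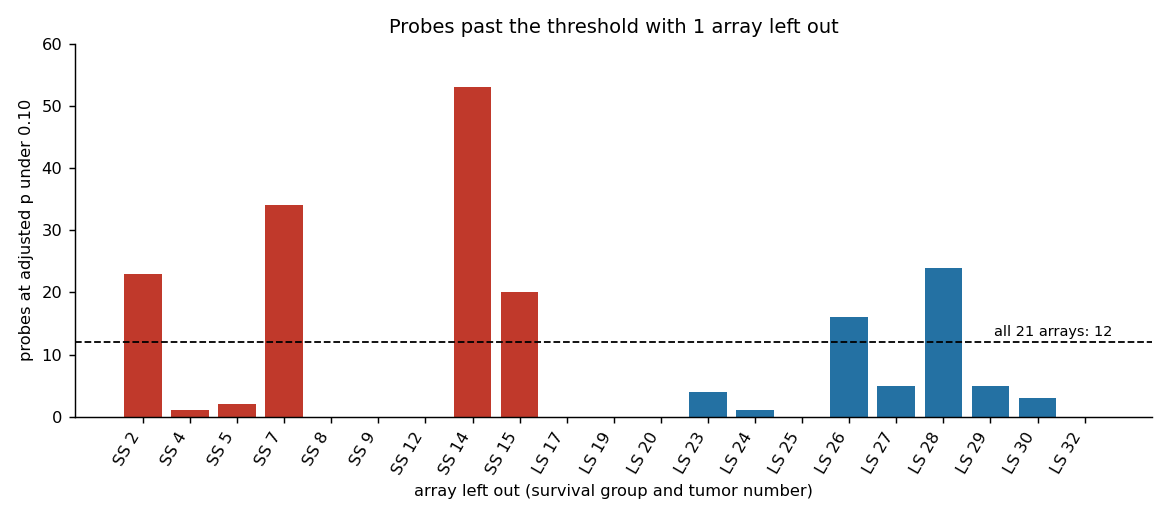
Bars give the number of probes past an adjusted p of 0.10 (y axis) after the array on the x axis was left out, red for SS and blue for LS tumors, with a dashed line at the 12 probes of all 21 arrays. The count ranged from 0 to 53, and 8 of the arrays take it to 0.

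AFG3L2 had the smallest p of all probes. In SS its log2 ratio ran from -0.68 to 0.01 (median -0.17) and in LS from 0.03 to 0.42 (median 0.22). Every SS tumor lay below every LS tumor, in the pooled groups and in each orientation. Among tumors in Cy5 the SS values were -0.68, -0.29, -0.17, -0.11 and -0.02, and the 6 LS values lay between 0.03 and 0.35 (median 0.16). Among tumors in Cy3 the SS values were -0.30, -0.17, -0.13 and 0.01, and the LS values lay between 0.19 and 0.42 (median 0.30). With orientation in the model, SS was lower by 0.44 (SE 0.07, 95% interval -0.59 to -0.28, adjusted p = 0.075), a fold of 1.35. Its other 2 probes showed -0.02 and 0.05, so the difference rests on 1 of 3 probes of the gene. The adjusted p stayed under the threshold in 12 of the 21 fits that left out an array.

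CCAR1 is a coactivator of nuclear receptors and p53 and takes part in apoptosis signaling. Its first probe (A) ran from -0.18 to 0.86 (median 0.23) in SS and from -0.90 to 0.20 (median -0.34) in LS. The difference was 0.65 (SE 0.12, adjusted p = 0.090), a fold of 1.57. Its second probe (B) ran from -0.09 to 1.01 (median 0.17) in SS and from -1.0025 to -0.16 (median -0.33) in LS, with a difference of 0.68 (SE 0.13, adjusted p = 0.095). On probe B every SS tumor lay above every LS tumor, again in each orientation: in Cy5 the SS values were -0.05, 0.17, 0.42, 0.59 and 1.01 above LS values that ended at -0.21, and in Cy3 they were -0.09, -0.06, 0.07 and 0.49 above LS values that ended at -0.16. The probes gave 0.88 and 0.94 in Cy5 and 0.39 and 0.40 in Cy3. Probes with no overlap in either orientation were rare, and a small p favors such separation, so this is a description and no test. Those with SS higher in both made up 0.00451% of all probes and those with SS lower in both 0.00902%, a total of 3 probes: CCAR1 B, AFG3L2 and ARIH2. In Cy5 alone 3.2% of probes had all SS tumors above and 0.654% all below the LS tumors, and in Cy3 alone 1.4% and 3.04%.

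ANKRD17, an ankyrin repeat protein, had the largest difference of the 12. In SS it ran from -0.75 to 1.26 (median 0.57) and in LS from -2.75 to -0.65 (median -0.96). The difference was 1.47 (SE 0.26, 95% interval 0.92 to 2.02, adjusted p = 0.075), a fold of 2.77. All 5 SS tumors in Cy5 (0.19 to 1.15) stood above the 6 LS tumors (-1.35 to -0.87). In Cy3 the groups overlapped, since SS 9 and SS 15 (-0.75 and -0.68) lay inside the LS range, which included LS 23 at -2.75. The other 2 probes of the gene showed 0.52 and 0.25 in the same direction, with adjusted p of 0.147 and 0.387.

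CHML differed by 0.93 (SE 0.16, adjusted p = 0.075), a fold of 1.91, from -0.36 to 1.24 (median 0.43) in SS against -1.36 to 0.10 (median -0.57) in LS. The difference was 0.86 in Cy5 and 1.01 in Cy3, where every SS tumor (0.43 to 1.24) lay above every LS tumor (-0.87 to 0.10). FRA10AC1 differed by 0.66 (SE 0.12, adjusted p = 0.075), a fold of 1.58, from -0.17 to 0.93 (median 0.30) in SS against -0.79 to 0.64 (median -0.33) in LS. It showed 0.50 in Cy5 and 0.83 in Cy3, and LS 24 at 0.64 was the 1 LS tumor above 0. Both genes were higher in all 9 SS tumors than the LS mean of their orientation.

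CCDC25 differed by 0.48 (SE 0.09, adjusted p = 0.075), with nearly the same difference in Cy5 (0.49) and Cy3 (0.46). Its values ran from -0.18 to 0.46 (median 0.31) in SS and from -0.45 to 0.05 (median -0.25) in LS, and SS 2 (-0.18) was the 1 SS tumor below 0. PARP4 differed by 0.38 (SE 0.07, adjusted p = 0.095) and showed 0.57 in Cy5 and 0.16 in Cy3. Its SS values were 0.29 to 0.76 in Cy5, all above the LS values (-0.15 to 0.05), but -0.17 to 0.17 in Cy3, where LS ran from -0.29 to -0.15. The difference between the orientations passed the test itself (adjusted p = 0.0868). Its other probe showed -0.87 (SE 0.49, adjusted p = 0.52), the opposite sign.

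**Figure D2:**
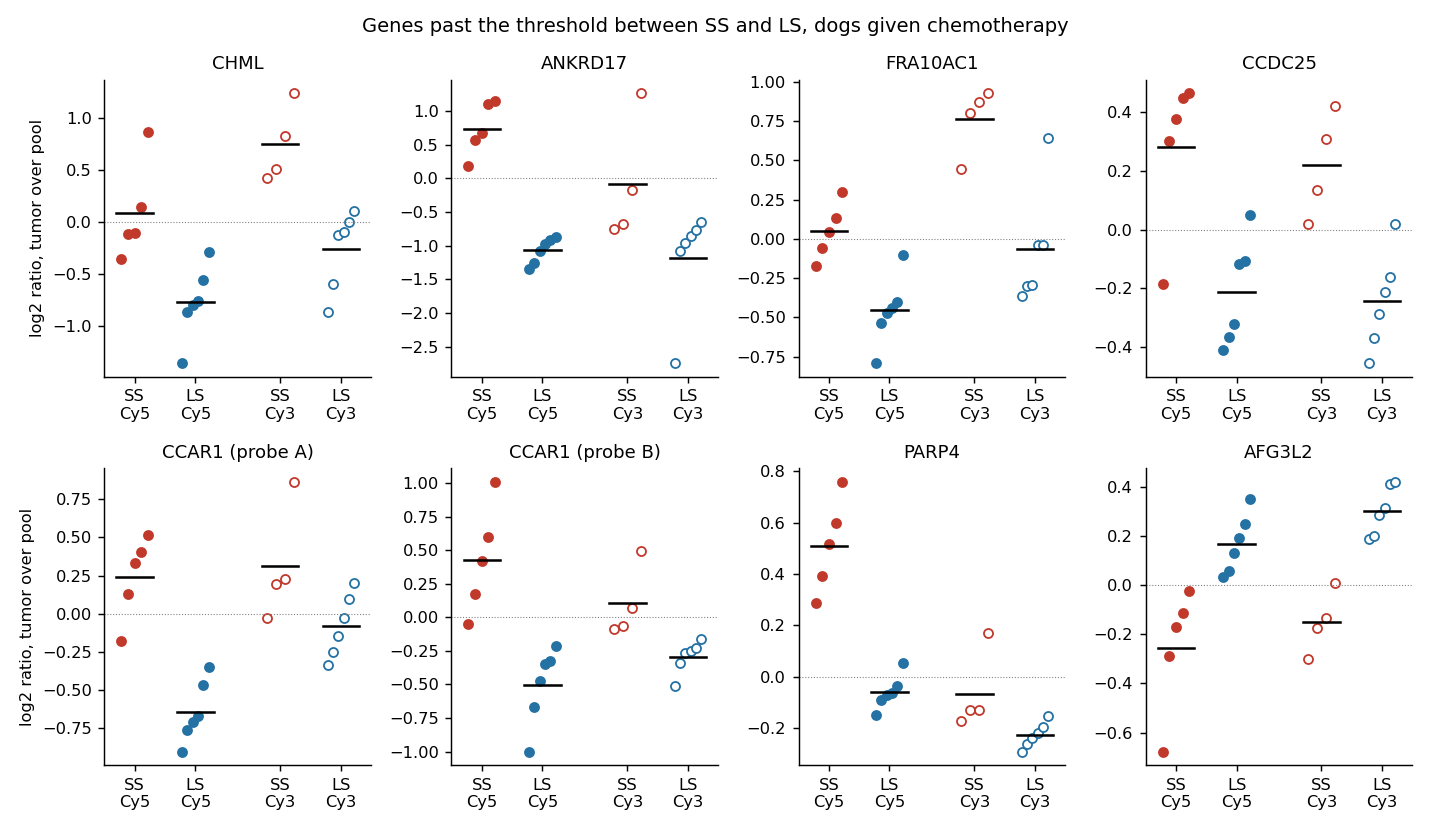
Each point is the log2 ratio of 1 tumor over the pool (y axis) for the 7 named genes past the threshold, CCAR1 with both probes, in SS (red) and LS (blue), with filled points for tumors in Cy5 and open points for tumors in Cy3, and lines at the means. SS and LS do not overlap in either orientation for AFG3L2 and CCAR1 probe B, and PARP4 separates mainly in Cy5.

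The 4 probes without a gene symbol showed differences of 0.51, 0.84, -0.38 and -0.46, with adjusted p of 0.075, 0.0919, 0.075 and 0.0933. All 12 probes had the same sign in Cy5 and Cy3, whereas 47.6% of all probes did. Since the fit with a common difference picks probes on which the orientations agree, this is a description of the 12 and no test. In Cy5 alone 1105 probes (4.98%) passed, and SS was higher for 998 (4.5%) and lower for 107 (0.483%). The 1105 included 10 of the 12, which were picked on arrays that include these. In Cy3 alone limma called 0 (2827 at an unadjusted p under 0.05, 12.7%, and the smallest adjusted p was 0.16). The SS minus LS difference depended on orientation for 923 probes (4.16%), and in Cy3 minus Cy5 terms 131 were positive (0.591%) and 792 negative (3.57%). Across all probes the differences in the orientations correlated at -0.01, with no p since probes share arrays. The count of 923 was carried by single tumors as well. It was 0 without SS 5, 7, 8 or 9, 12 without SS 12, 326 without SS 14, 1698 without SS 4, between 390 and 534 without LS 17, 19 or 23, 50 without LS 26, 3 without LS 28, 4 without LS 29 and 5 without LS 32.

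The next genes with higher values in SS did not pass the threshold. Their adjusted p was 0.12 for each of SCAF11, SIAE, ZC3H11A, MRPS31, ACYP1 and ESF1. SCAF11, a splicing factor, showed 0.52 (SE 0.11), with 0.58 in Cy5 and 0.45 in Cy3. SIAE, a sialic acid esterase, showed 0.46 (SE 0.09; its other probe 0.20), and ZC3H11A, a zinc finger protein of mRNA export, 0.49 (SE 0.10). MRPS31, of the small subunit of the mitochondrial ribosome, showed 0.57 (SE 0.12), and its other probe 0.39. ACYP1, an acylphosphatase, showed 0.31 (SE 0.06), with 0.22 and 0.29 on its other probes, and ESF1, a nucleolar protein of ribosomal RNA processing, 0.73 (SE 0.16). For each of these 6 genes all 9 SS tumors lay above the LS mean of their orientation, which the ranking by p favors. SCAF11 and MRPS31 are also in the list that the study drew from arrays including these.

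The next genes with lower values in SS did not pass either. ARIH2, an E3 ubiquitin ligase that works with cullins, showed -0.34 (SE 0.07, adjusted p = 0.12), with -0.34 in Cy5 and -0.35 in Cy3. Its SS tumors (-0.62 to -0.02) lay below the LS tumors of the same orientation, but in Cy5 the highest SS and the lowest LS value were both -0.14. MPV17L2, a mitochondrial inner membrane protein, showed -0.31 (SE 0.07, adjusted p = 0.12), and ALOX12, arachidonate 12-lipoxygenase, -0.26 (SE 0.06, adjusted p = 0.146). GALNT11, an enzyme of mucin-type O-glycosylation, showed -0.36 (SE 0.08) and VTN, the adhesion protein vitronectin, -0.26 (SE 0.06), both with an adjusted p of 0.149. DBNDD2 showed -0.24, ZNF70 -0.22 and EPM2A, the glycogen phosphatase laforin, -0.31, with adjusted p of 0.155, 0.16 and 0.169. CHP1 showed -0.37, TMEM54 -0.31 and ETFRF1, a regulator of the electron transfer flavoprotein, -0.40, all with an adjusted p of 0.223. The other probes of ALOX12 (-0.08), VTN (-0.11 and -0.07), DBNDD2 (-0.09) and ZNF70 (-0.11) showed smaller differences, those of CHP1 showed -0.06 and 0.06, and the 12 other probes of ETFRF1 ran from -0.40 to -0.03.

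**Figure D3:**
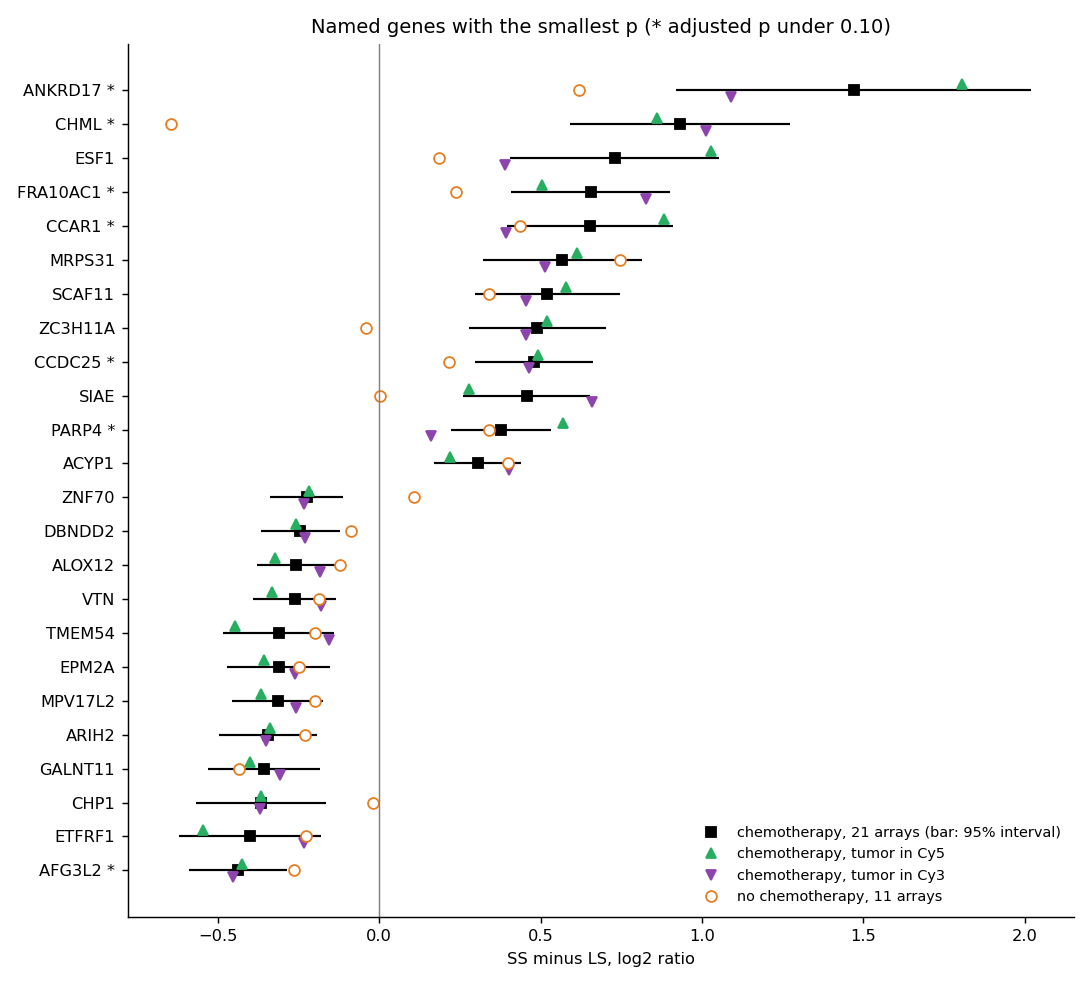
For the 12 named genes of smallest p in each direction, the x axis gives the SS minus LS difference of log2 ratios: squares with 95% intervals for the 21 dogs given chemotherapy, triangles for each dye orientation and open circles for the 11 dogs without chemotherapy. Stars mark the 7 genes with an adjusted p under 0.10, and the open circle of CHML lies on the other side of 0, at -0.64.

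In the 11 dogs without chemotherapy limma called 0 probes between SS and LS (1421 at an unadjusted p under 0.05, 6.41%, smallest adjusted p 0.744). Of the 12 probes, 9 had the same sign there, as did 58.2% of all probes. With and without chemotherapy the differences correlated at 0.16 across probes; these groups share no array, but the pool is common to both. ANKRD17 showed 0.62 (SE 0.58) without chemotherapy, CCAR1 0.44 (SE 0.54) on probe A and 0.54 (SE 0.33) on probe B, PARP4 0.34 (SE 0.12), FRA10AC1 0.24 (SE 0.19), CCDC25 0.22 (SE 0.18) and AFG3L2 -0.26 (SE 0.17). CHML showed -0.64 (SE 0.32), the opposite sign. In that group the genes with the smallest p were, with higher values in SS, SRP19 (0.73), MRPL39 (0.76), ABCD4 (0.59) and C6H1orf52 (0.49), and with lower values FAM89B (-0.57), CLDND1 (-0.68), EIF3L (-3.94) and NTF3 (-0.42). Their differences in dogs given chemotherapy were 0.22, -0.21, 0.07, 0.31, -0.19, -0.13, -0.22 and -0.25.

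Whether the SS minus LS difference depends on chemotherapy was tested as an interaction over all 32 arrays. No probe passed: limma called 0 (1191 at an unadjusted p under 0.05, 5.37%, smallest adjusted p 0.271). The named genes with the smallest p and a more positive difference under chemotherapy were HSF1, the master regulator of the heat shock response, CHML, STN1, of the telomere-capping CST complex, and SMARCAD1, a chromatin remodeler of DNA end resection. HSF1 differed by 0.23 (SE 0.08) with and by -0.53 (SE 0.16) without chemotherapy, a gap of 0.76 (SE 0.15, adjusted p = 0.271). CHML had a gap of 1.58 (SE 0.33, adjusted p = 0.297), STN1 0.60 (SE 0.18) and SMARCAD1 0.59 (SE 0.18), the latter pair with an adjusted p of 0.903. Gaps in the other direction were -1.51 (SE 0.40) for MME, a membrane metallopeptidase, -1.35 (SE 0.37) for PDCD6, a calcium-binding protein of cell death and vesicle traffic, -1.67 (SE 0.47) for PLS3, an actin-bundling plastin, and -0.38 (SE 0.11) for WRAP53, a telomerase cofactor, also with an adjusted p of 0.903. For ANKRD17 the gap was 0.83 (SE 0.59), for CCAR1 0.21 (SE 0.43), for PARP4 0.03 (SE 0.14) and for AFG3L2 -0.18 (SE 0.15). None of the 12 probes was thus shown to differ in its difference between treated and untreated dogs.

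Genes that handle the drugs given were looked at in lists, the smallest of which had only 2 genes measured. The lists below were read against the 5246 named genes, whose median difference was 0.02 and of whose probes 10.3% had an unadjusted p under 0.05. Of these genes 2883 had a higher and 2363 a lower mean in SS. No probe of the 11 lists on drug handling, DNA repair and cell death passed the threshold. The 4 genes of platinum uptake and copper handling had a median of 0.01, with SLC22A3, an organic cation transporter, at -0.05 and CCS, the copper chaperone of superoxide dismutase, at 0.07. The 6 multidrug efflux transporters had a median of -0.06. ABCC5, which exports conjugates and nucleotide analogs, showed 0.18 (SE 0.06, adjusted p = 0.332) on 1 probe and -0.15 and 0.03 on the others, and ABCC2, which exports glutathione conjugates, showed -0.23 (SE 0.14). The 2 topoisomerase genes had a median of -0.07, with TOP2B, a target of doxorubicin, at -0.11 (SE 0.14) and TOP3B at -0.07. The 5 genes of anthracycline reduction had a median of 0.02, with XDH at 0.32 (SE 0.24) and POR at 0.05.

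Of the 30 genes of glutathione and thioredoxin detoxification, 20 showed a higher and 10 a lower mean in SS (median 0.10). MGST1, a membrane glutathione transferase, showed 0.81 (SE 0.28, adjusted p = 0.332), with 0.75 in Cy5 and 0.88 in Cy3, and TXNRD1, thioredoxin reductase, 0.25 (SE 0.09, adjusted p = 0.352). MGST1, and SMC6 and HSP90AA1 below, are also in the study's list. Nucleotide excision repair (21 genes, median 0.06) was led by POLE4, a subunit of DNA polymerase epsilon, at 0.37 (SE 0.10, adjusted p = 0.257), higher in all 9 SS tumors than the LS mean of their orientation, and by RFC1, the large subunit of replication factor C, at 0.38 (SE 0.11, adjusted p = 0.3). Crosslink repair and homologous recombination (17 genes, median 0.07) was led by SMC6, a subunit of the SMC5/6 complex, at 0.51 (SE 0.13, adjusted p = 0.208), with BRCA2 at 0.32 (SE 0.11, adjusted p = 0.332). BRCA2 showed 0.59 in Cy5 and 0.02 in Cy3, and RFC1 ran from 0.15 to 0.58 over 10 limma settings that include each orientation alone. Of the probes in these 2 repair lists 14.8% (4 of 27) and 16% (4 of 25) had an unadjusted p under 0.05, all with higher values in SS. Of all probes on the array 6.84% did so in that direction.

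The list of end joining and mismatch repair (10 genes), which also held the DNA glycosylase NEIL1, had a median of 0.03. NEIL1 showed -0.14 (SE 0.07) and PMS2, of mismatch repair, 0.19 (SE 0.14). The p53 response (7 genes) had a median of -0.03, with RAD1, of the checkpoint clamp, at 0.37 (SE 0.13, adjusted p = 0.332) and CDKN1A, the p53 target that halts the cycle, at -0.38 (SE 0.22), which was -0.93 in Cy5 and 0.25 in Cy3. RAD1 ran from 0.07 to 0.63 over 10 limma settings that include each orientation alone. The BCL2 family (6 genes) had a median of 0.03, with BCL2L13 at -0.19 (SE 0.08) and BCL2L14 at -0.22 (SE 0.11). Caspases, death receptors and their inhibitors (10 genes) had a median of 0.04, and 22.2% of their 18 probes had an unadjusted p under 0.05, 3 with higher and 1 with lower values. Among them BIRC6, a giant inhibitor of apoptosis, showed 0.41 (SE 0.10, adjusted p = 0.149) and 0.39 and 0.06 on its other probes, and PDCD6 -0.47 (SE 0.14, adjusted p = 0.286).

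Of the 6 lists on general processes, none held a probe past the threshold. Cell cycle and DNA replication had 17 of 20 genes with a higher mean in SS (median 0.16), led by E2F3, an activator of S phase genes, at 0.57 (SE 0.22) and CKS1B, a cofactor of cyclin-dependent kinases, at 0.36 (SE 0.15); these were 1.26 and 0.72 in Cy5 (adjusted p = 0.019 and 0.0313 there) but -0.21 and -0.05 in Cy3. Proteasome genes had 22 of 30 higher (median 0.12), with PSMC4 at -0.36 (SE 0.11) and PSMB8, an immunoproteasome subunit, at 0.52 (SE 0.16) on 1 probe and 0.19 on another. Heat shock proteins had 17 of 24 higher (median 0.10), with HSF1 at 0.23, DNAJC3, a cochaperone of the endoplasmic reticulum, at 0.25 (SE 0.09), and HSP90AA1, the inducible HSP90, at 0.89 (SE 0.32, adjusted p = 0.337), with 0.41 and 0.18 on its other probes. The respiratory chain had a median of 0.05 (NDUFS5 0.20, NDUFC1 0.44), hypoxia and glycolysis 0.02 (GPI 0.38, PFKP -0.38) and Wnt signaling -0.02. In the latter CSNK1A1, a kinase of the beta-catenin destruction complex, showed 0.47 (SE 0.15, adjusted p = 0.311) and DKK3, a secreted Dickkopf protein, -0.79 (SE 0.28, adjusted p = 0.332).

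Of the clones that the study listed between SS and LS on all 32 arrays, 24 genes were matched to probes here by symbol. They had a median difference of 0.50 in the dogs given chemotherapy, all 24 with a higher mean in SS. Of their 47 probes, 4 passed the threshold (ANKRD17, FRA10AC1 and CCAR1 with both probes), and 63.8% had an unadjusted p under 0.05 against 10.3% of all named probes. The study chose this list on arrays that include these, so it is not independent evidence of its direction. The median was 0.55 in Cy5, 0.45 in Cy3 and 0.56 without chemotherapy, where 23 of 24 genes had a higher mean in SS. The untreated dogs and both orientations were among the 32 arrays of that choice, so these values are not independent either.

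**Figure D4:**
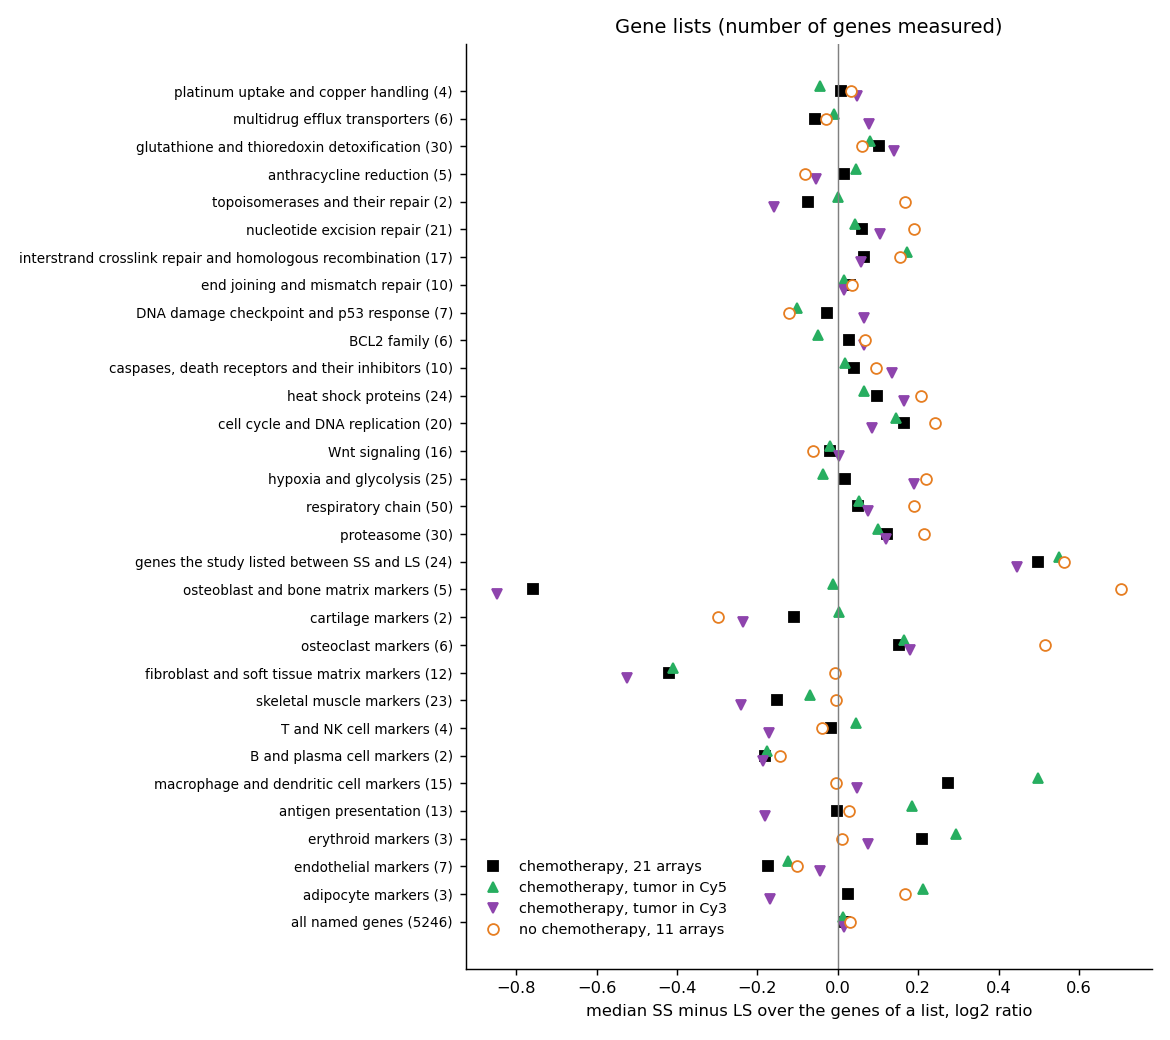
The x axis gives the median SS minus LS difference of log2 ratios over the genes of each list on the y axis: squares for the 21 dogs given chemotherapy, triangles for each dye orientation, open circles for the 11 dogs without chemotherapy. With chemotherapy, drug handling, repair and cell death lists run from -0.07 (topoisomerases) to 0.10 (glutathione and thioredoxin detoxification), against 0.02 for all named genes. The matrix lists lie at -0.42 and -0.76 with chemotherapy, the latter at -0.44 without SS 4.

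Matrix genes were the marker groups with the most negative medians in SS dogs given chemotherapy, although no probe passed the threshold. Of the 12 fibroblast and soft tissue matrix genes, 11 had a lower mean in SS (median -0.42, -0.41 in Cy5 and -0.53 in Cy3). Of their 25 probes 9 had an unadjusted p under 0.05, all with lower values (36%, against 4.44% of all probes in that direction). The 9 were probes of COL5A2, COL3A1, COL5A1 and VIM only, most of them of COL5A2, and probes of 1 gene are no replicates. COL5A2, a chain of the type V collagen that nucleates fibrils, ran from -3.78 (SS 12) to 0.18 (SS 7) in SS and from -0.70 to 1.42 in LS, with medians of -0.87 and 0.25. Its difference was -1.31 (SE 0.40, adjusted p = 0.303), and its other 4 probes gave -1.06, -1.03, -1.42 and -1.04. All 9 SS tumors lay below the LS mean of their orientation. COL5A1, its partner chain, showed -0.61 (SE 0.22, adjusted p = 0.339). COL3A1, the fibrillar collagen of soft tissue, showed -1.07 (SE 0.40, adjusted p = 0.346) and -1.43 on another probe, and VIM, vimentin, -0.60 (SE 0.26, adjusted p = 0.398).

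In the osteoblast list, SPARC, the collagen-binding osteonectin, showed -1.04 (SE 0.32, adjusted p = 0.303), from -2.15 (SS 4) to 0.74 (SS 7) in SS against -0.65 to 1.21 in LS, and its other 4 probes ran from -1.19 to -0.79. COL1A2, a chain of type I collagen, showed -1.11 (SE 0.52, adjusted p = 0.429), with -0.69 and -0.47 on its other probes. The median of the 5 osteoblast genes was -0.76, but -0.01 in Cy5 and -0.85 in Cy3, and -0.44 without SS 4. ALPL, alkaline phosphatase of mineralizing cells, showed -0.95 (SE 0.56), and PHEX and SPP1 showed 0.29 and 0.63. With a fibroblastic component in the model COL5A2 was at -1.27 and SPARC at -1.08, and in long bone tumors alone at -1.34 and -1.07, both settings that were chosen for these genes after their values were seen. Leaving out any 1 array kept COL5A2 between -1.44 and -0.96 and SPARC between -1.21 and -0.84.

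Without chemotherapy the fibroblast list had a median of -0.01, with 6 of 12 genes higher in SS, and COL3A1 showed -0.13 (SE 0.75). Some matrix genes had the opposite sign there: COL5A2 showed 0.92 (SE 0.70), SPARC 0.66 (SE 0.65), COL1A2 1.61 (SE 0.99) and ALPL 1.58 (SE 0.84). Over the interaction, 7 of 25 fibroblast probes and 5 of 11 osteoblast probes had a negative gap at an unadjusted p under 0.05. Of all 7694 named probes 281 had one. The 7 were probes of COL5A2 and VIM only, the 5 of SPARC, COL1A2 and ALPL, and probes of 1 gene are no replicates. The gap for COL5A2 was -2.20 (SE 0.79, adjusted p = 0.903). For COL5A2, SPARC and COL1A2 these values rested largely on 1 tumor, LS 22, at -3.48, -3.18 and -5.43. Without it, in a fit chosen after the values were seen, the untreated dogs showed 0.14 (SE 0.61), 0.14 (SE 0.67) and 0.45 (SE 0.83) for these genes but 1.36 (SE 0.99) for ALPL. Without LS 22, 1 fibroblast and 0 osteoblast probes had such a gap, against 133 of all 7694 named probes.

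**Figure D5:**
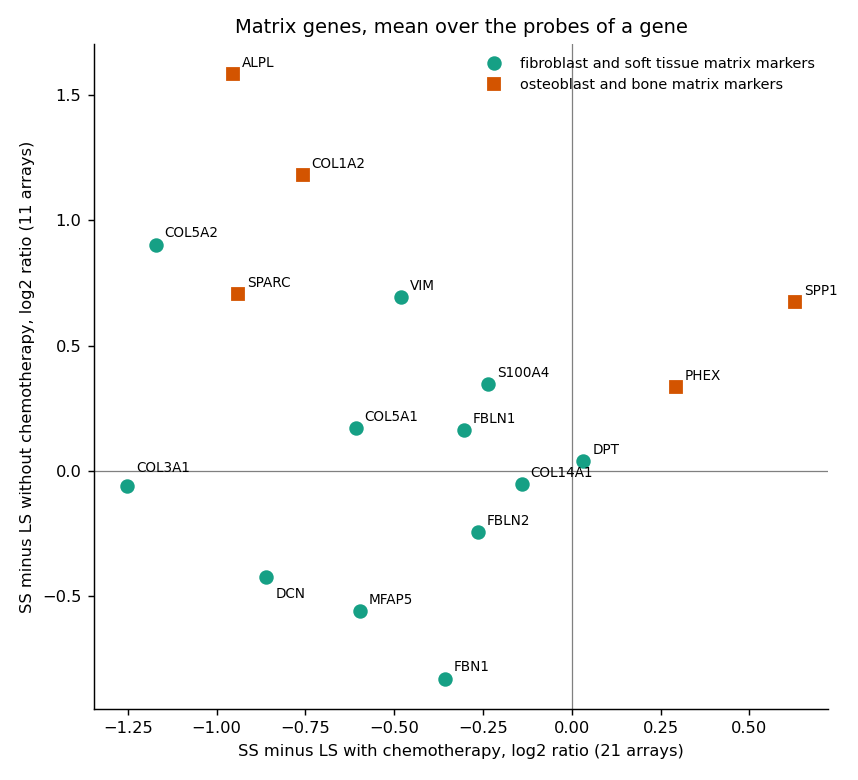
Each point is a matrix gene, as the mean over its probes, with its SS minus LS difference of log2 ratios in the 21 dogs given chemotherapy on the x axis and in the 11 dogs without on the y axis. COL5A2, SPARC, COL1A2 and ALPL lie lower in SS with chemotherapy and higher without; without LS 22 the untreated difference was 0.14, 0.14, 0.45 and 1.36 on their first probes.

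Macrophage and dendritic cell markers had a higher mean in SS for 15 of 15 genes (median 0.27), with 0.50 in Cy5 and 0.05 in Cy3. Without chemotherapy the median was -0.004, with 6 genes higher and 9 lower. With chemotherapy, 1 of the 18 probes had an unadjusted p under 0.05 (5.56%, against 10.3% of all named probes). CYBB, the phagocyte oxidase subunit, showed 0.86 (SE 0.32, adjusted p = 0.352), from -0.78 to 3.21 (median 0.14) in SS and from -0.89 to -0.16 (median -0.68) in LS, and CD163, a scavenger receptor, 0.35 (SE 0.19). The summed level of the list, as the mean over its genes, ran from -0.62 to 1.95 in SS, with SS 4 highest, and from -0.77 to 0.75 in LS. Without SS 4, a fit also chosen after the values were seen, the median was 0.08, with 11 of 15 genes higher, and CYBB was at 0.52. Skeletal muscle genes had lower means in SS for 21 of 23 genes (median -0.15). Without chemotherapy the median was -0.004, with 10 genes higher and 13 lower. With chemotherapy, 1 of the 47 muscle probes had an unadjusted p under 0.05 (2.13%, against 10.3% of all named probes). By p the first were PYGM, muscle glycogen phosphorylase, at -0.20 (SE 0.09) and ATP2A1, the muscle calcium pump, at -0.28 (SE 0.14), with -0.09 to 0.05 on its other 4 probes. The summed muscle level ran from -0.48 to 0.93 in SS and from -0.38 to 1.399 in LS, so both groups held tumors with more muscle signal than the pool. How far cell makeup contributed to the 12 probes was not tested.

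The remaining marker lists were small. T and NK cell markers (4 genes) had a median of -0.02, with LCK at 0.16 and CD3E at -0.13, and their summed level ran from -0.33 to 0.41 in SS and from -0.15 to 0.29 in LS. B and plasma cell markers (2 genes) were at -0.18, with XBP1 at -0.39 and JCHAIN at 0.02, and antigen presentation (13 genes) at -0.003, with PSMB8 at 0.52 and DLA-79 at 0.17. Endothelial markers had a median of -0.17, with MCAM at -0.60 (SE 0.26) and PECAM1 at -0.56 (SE 0.27), both larger in Cy5 (-0.98 and -0.80) than in Cy3 (-0.16 and -0.28). Osteoclast markers (6 genes) had a median of 0.15, with CA2 at 0.60 (SE 0.66) and CLCN7 at 0.06. Cartilage markers (2 genes) were at -0.11, with COL2A1 at -0.38 and COMP at -0.35; other probes showed 0.27 for COL2A1 and -0.14 and 0.0002 for COMP. Erythroid markers (3 genes) were at 0.21, with GATA1 at 0.21 (SE 0.09) and CA1 at 0.29, and adipocyte markers (3 genes) at 0.02, with RBP4 at -0.46 and CIDEA at 0.03. No marker list held a probe past the threshold, and no neutrophil marker had a probe.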

How the data were processed

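Log2 ratios of 32 canine osteosarcomas on two-color cDNA arrays were used as the authors deposited them. Per the labels and the study's methods, the authors removed defective spots by flag, normalized by print-tip Lowess, took logarithms and switched the ratios of dye-swapped arrays. The base of the logarithm is not given in the sources used here and was taken as 2. With the stated switching, every ratio was treated as that of tumor to pool. Raw channel signals were not analysed here, so signal over background is unknown and the number of arrays limits the precision. The table held 22176 probes with 5 missing values, which drop out of the fit of their probe. The platform annotation gave 7694 probes 1 gene symbol and 14482 none, and 7340 named probes matched RefSeq gene identifiers. The files name no genome build, so no coordinates are printed.

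Chemotherapy, survival time, sex, grade, histology and site came from the clinical table of the study, matched by tumor number. Dogs were taken as the replicates. Moderated linear models of limma 3.58.1 (R 4.3.3, two-sided) compared SS with LS, with dye orientation as covariate. P-values were adjusted over all 22176 probes after Benjamini-Hochberg, and 0.10 was the threshold. The same test was run within orientations, in the 11 untreated dogs, and as interactions with chemotherapy over 32 arrays and with orientation. The fits were tested on simulated data. SAM was rebuilt with 100 permutations, 10 neighbors for missing values and a false discovery rate of 10%.

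Named are the 12 genes with higher and the 12 with lower values in SS with the smallest p, up to 4 genes per direction for the comparison without chemotherapy and for the interaction with it, and for each of 30 lists up to 2 genes with the smallest p and every one past the threshold, with the probe of smallest p for each gene. Other list members named, and the tumors singled out, were chosen after their values were seen. A list's median is taken over gene means. The groups, lists and rules were chosen with earlier results of these data known. Alternatives covered covariates, orientation, scaling, array weights, site, SAM, survival time, missing values and each array left out.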

Additional observations from a re-analysis of the deposited data

Results flagged for a closer look

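Among the 9 SS tumors, 1 value stood far from the others for 5 of 29 probes tested. Chance marks about 1 group in 20 for independent values. The probes here were picked by p, share the same dogs and pool both orientations, so that rate gives no test. Low values were those of SS 2 for ESF1 (-0.77, the next at 0.16), SS 4 for AFG3L2 (-0.68, the next at -0.30) and SS 2 for GALNT11 (-0.70, the next at -0.33). High values were those of SS 8 for ZNF70 (0.22, the next at -0.02) and SS 9 for CHP1 (0.32, the next at -0.14). Both high values run against the lower mean of SS. Without SS 4 the difference of AFG3L2 was -0.38, and without SS 2 that of ESF1 was 0.81 and that of GALNT11 -0.31. This list holds SS values only. Among LS tumors, LS 23 for ANKRD17 (-2.75, the next at -1.35) also lay far from the others.

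The SS minus LS difference depended on dye orientation for 923 probes (limma, adjusted p under 0.10). For PARP4 the difference in Cy3 minus that in Cy5 was -0.41 (adjusted p = 0.0868). Each orientation holds other dogs, so an effect of the dye and one of the dogs cannot be told apart.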

How the results depend on the processing

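The 12 probes between SS and LS became 0 with no covariate, in Cy3 alone, in the 4-group fit on all 32 arrays, in long bone tumors alone and with log10 survival time, 2 with sex and 2 with a fibroblastic component in the model, 22 after quantile normalization, 44 by SAM, 120 with array weights and 1105 in Cy5 alone; with the sign of the Cy3 arrays turned, an alternative chosen after seeing the data, there were 81. All 12 kept their sign in the 10 limma settings compared, and in all 21 fits with an array left out, in which the count ran from 0 to 53. Since the 12 were picked by p on these same arrays, the kept sign is a description and no test. With arrays left out, the interaction with chemotherapy gave 0 to 1 probes (1 without SS 13), the comparison without chemotherapy 0, and the dependence on orientation 0 to 1698 (406 after quantile normalization). No paired analysis was possible because the replicate numbers are tumor numbers and SS and LS share none. The cause of these shifts was not tested.

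Of 81 genes with alternatives, those that turned had no adjusted p under 0.10 over all 21 arrays, but E2F3 (0.019) and CKS1B (0.0313) did in Cy5 alone. In Cy3 alone the difference was -0.0539 for CCS, -0.19 for XDH, -0.14 for PMS2, 0.25 for CDKN1A, -0.21 for E2F3, -0.051 for CKS1B, -0.0766 for CLCN7, 0.014 for RBP4 and -0.17 for CIDEA, and in Cy5 alone 0.083 for TOP2B. CCS was at -0.0469 with array weights. JCHAIN was at -0.46 with array weights, -0.18 after quantile normalization, -0.0097 with grade and -0.0083 with a fibroblastic component, and between -0.31 and 0.21 with an array left out. CIDEA lay between -0.0772 and 0.0742 with an array left out.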
